A study of Drosophila melanogaster with 3 samples.

Results

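Heat shock and chaperone genes were examined for binding of CG12071, a protein of Drosophila melanogaster, in whole embryos. The group consists of 10 genes listed by symbol, among 13945 protein-coding genes of the annotation: the constitutive chaperone genes Hsp83, Hsc70-3, Hsc70-4, Hsc70-5 and Hsp60A, the small heat shock protein genes Hsp22, Hsp23, Hsp26 and Hsp27, and the heat shock factor gene Hsf. Binding was measured by ChIP-seq, the sequencing of DNA recovered with a protein by immunoprecipitation, in 3 biological replicates of 1 group. All 3 came from transgenic flies with green fluorescent protein (GFP) fused to the C-terminal end of CG12071, as mixed-sex embryos collected at 12 to 24 h, with no treatment given in the labels. With 1 group of whole embryos there is no comparison between conditions, and the cells that carried a signal cannot be told apart. The description line of each replicate calls it an input control, whereas its other fields describe an immunoprecipitation, which is how it was treated here. Each value below describes where the tagged protein was recovered, with the spread over the replicates as its error and no test, since the members were listed with results of these data known.

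Chaperones bind unfolded or partly folded proteins and help them to fold, to cross membranes or to be cleared. Constitutive chaperones are made in most cells without stress, which does not exclude induction by heat. Genes of small heat shock proteins are switched on strongly by heat and, in Drosophila, also by the hormone ecdysone during development. In heat-shocked cells the heat shock factor Hsf assembles into trimers and binds heat shock elements, which are inverted repeats of a short GAA block in the promoters of these genes. GAGA factor, which binds GAGAG repeats, keeps many of these promoters open before stress.

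The authors deposited 5 lists of entries: 30000 entries, peaks and background together, for each replicate and for the pooled reads, and 4261 thresholded peaks that passed their test of reproducibility. Each entry has a summit, the base of its highest signal, and was ranked within its list by the authors' signal value, so that rank 1 is the strongest. The lists differ in strength, since a q-value of at most 0.05 was reached by 13828 entries in replicate 1, 12616 in replicate 2 and 4015 in replicate 3. Read depth is unknown. A thresholded peak counted as supported by a replicate if 1 of the 4261 top entries there had its summit no more than 100 bp away. Coordinates are dm6, and offsets are signed along the gene, so that a negative offset lies upstream of the transcription start site (TSS).

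The thresholded peaks covered 8 of the 10 members when summits in the gene or up to 2 kb from it were counted, where 27.6% of all protein-coding genes had such a summit. The 2 without a thresholded summit were Hsp60A and Hsf. By class, 4 of 5 constitutive chaperone genes, 4 of 4 small heat shock protein genes and Hsf with 0 of 1 were counted. Within 500 bp of a TSS the count was 7 of 10 members, with 13.4% among all genes, and the gene lost by this rule was Hsp23. Thresholded summits supported in all 3 replicates were found at 5 of 10 members (Hsp83, Hsc70-5, Hsp23, Hsp26 and Hsp27), with 16.2% among all genes. In the replicates taken singly, the 4261 strongest entries reached 8 members in replicate 1 (29.8% of all genes), 8 in replicate 2 (28.6%) and 5 in replicate 3 (25%). The 8 members rest on 9 distinct summits, because Hsp83 and Hsc70-5 had 2 each and Hsp23 and Hsp27 shared 1. Of these 9 summits, 8 lay within 500 bp of a TSS of a member. The same share over all 4261 thresholded summits is not given here, and no preference for promoters is read from this count.

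**Figure D1:**
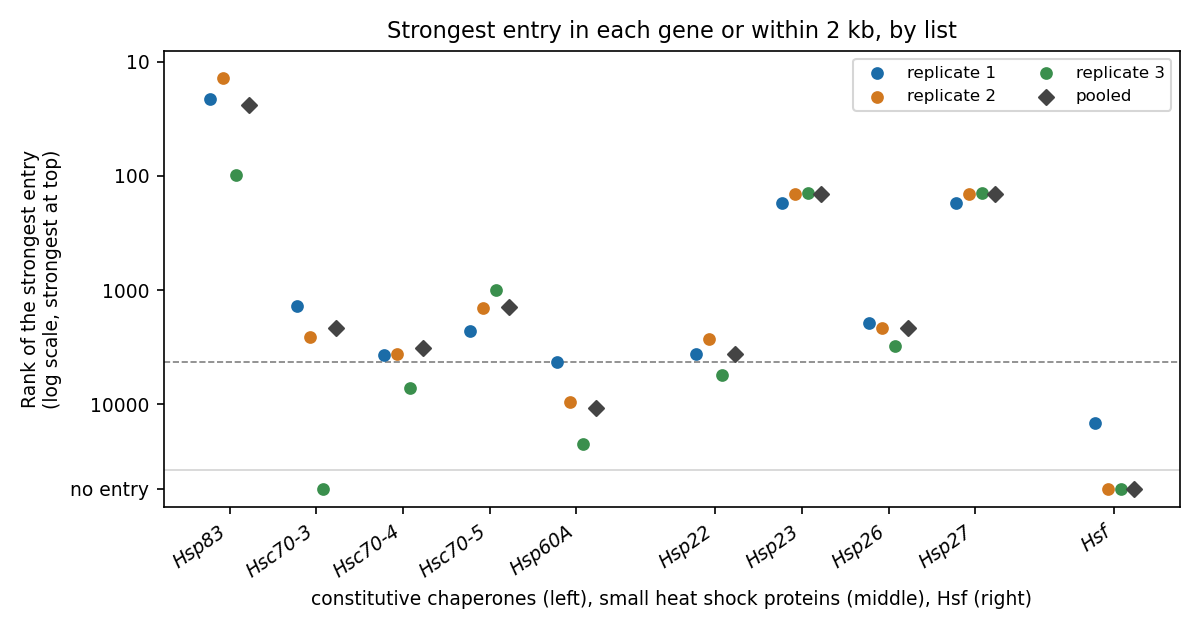
Rank of the strongest entry in each member gene or within 2 kb (vertical log axis, strongest at top) in replicates 1, 2 and 3 (circles) and in the pooled list (diamonds). The dashed line marks rank 4261, the number of thresholded peaks, and points below the grey line had no entry; Hsp83 lies at ranks 14 to 99 in the replicates, while Hsf has an entry in replicate 1 only.

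Hsp83 (FBgn0001233), which encodes the cytosolic Hsp90, carried the strongest signal of the 10 members. The gene lies on 3L from 3192969 to 3197059 on the plus strand and has 2 TSSs, an outer one at 3192969 and an inner one at 3193216. The upper peak, from 3192931 to 3193278 with its summit at 3193126, ranked 24 of 30000 in the pooled list with a signal value of 1875, where the thresholded peaks span 152 to 4816. It ranked 21 in replicate 1, 14 in replicate 2 and 99 in replicate 3, a mean of 44.7 ± 47.2 (SD, n = 3). Replicates 1 and 2 are close to each other, and replicate 3 is the weaker, though still among its 100 strongest entries. Taken by its best pooled entry, Hsp83 was in place 43 of the 13945 genes. The summit lay 90 bp upstream of the inner TSS and 157 bp downstream of the outer one, in the 5′ UTR exon of the longer transcript. Its position was the same to the base in the pooled list and in replicates 1 and 2, and was 11 bp upstream of that in replicate 3.

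Hsp83 had a second thresholded peak in its intron, from 3194144 to 3194389, with its summit at 3194289, 1073 bp downstream of the inner TSS and upstream of the coding exon. It ranked 357 in the pooled list and 510, 316 and 340 in replicates 1, 2 and 3 (mean 389 ± 106, SD, n = 3). This peak was the weaker of the pair in every replicate. In replicate 3 the pair stood closer together, at ranks 99 and 340, than in replicate 1, at 21 and 510. The remaining entries in the gene or within 2 kb were weak. The best pooled one lay 4484 bp from the inner TSS, past the end of the gene and 69 bp from the TSS of CG14966. It ranked 10075 in the pooled list and 6173 in replicate 2.

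The 2 Hsp83 summits are shown because the upper one lies beside a match to a heat shock element pair. The first line, whose label calls this match the element, runs from the summit base to its end, chr3L:3193126-3193155 (dm6, plus strand). The second is the 101 bases centred on the intron summit, chr3L:3194239-3194339 (plus strand). Capitals mark a pair of GAA blocks head to head, searched as GAANNTTC, whose centre is 25.5 bp downstream of the summit and whose first base is at −68 from the inner TSS. Single GAA or TTC blocks are left in lower case, and further TTC blocks lie beyond the end of the first line. None of the motifs searched was found in the intron window.
Hsp83 summit to element: ccctggcatccagaagcctctaGAAGTTTC
Hsp83 intron summit: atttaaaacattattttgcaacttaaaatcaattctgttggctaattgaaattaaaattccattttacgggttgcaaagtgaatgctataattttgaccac

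**Figure D2:**
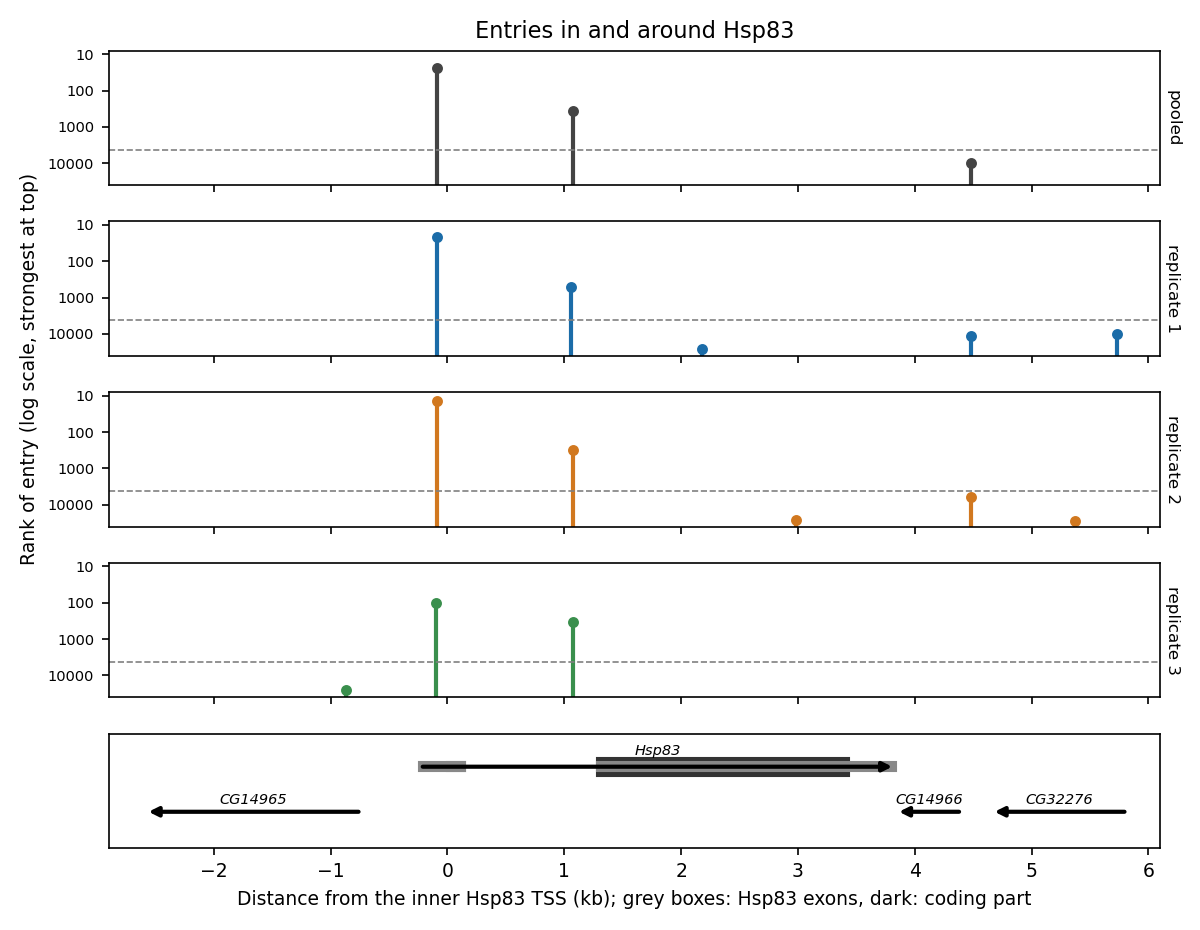
Entries in and around Hsp83 by distance of their summit from the inner TSS (kb, horizontal axis) and rank (vertical log axis, strongest at top) in the pooled list and each replicate; the lowest panel draws the genes. The entry 90 bp upstream and the one 1073 bp downstream stand above the dashed line at rank 4261 in all 4 lists, and no other entry does.

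By the distance between log10 ranks in the 3 replicates, 5 genes were most like Hsp83 among 1348 genes with a thresholded promoter summit and an entry in every replicate. These were CG1635 (ranks 33, 25 and 58), Ptpmeg2 (34, 33 and 97), CG18549 (20, 20 and 39) and the pair CG13390 and CG17294, which share 1 summit (36, 29 and 55). Their summits lay 84 to 190 bp upstream of their own TSSs. Over the 1348 genes the median distance to the TSS was 138 bp, and 77.9% of summits were upstream.

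Hsc70-3 (FBgn0001218) encodes BiP, the Hsp70 of the endoplasmic reticulum, and lies on X from 11801696 to 11807117 on the minus strand. Its thresholded peak had its summit upstream of the outermost of 4 TSSs and within 500 bp of it. The peak ranked 2159 in the pooled list, 1392 in replicate 1 and 2599 in replicate 2. Replicate 3 had no entry anywhere in the gene or within 2 kb, so the thresholded peak was supported in 2 of 3 replicates and no mean is given. A weaker entry stood at an inner TSS, 41 bp upstream of it, at rank 5646 in the pooled list, 4940 in replicate 1 and 5084 in replicate 2.

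Hsc70-4 (FBgn0266599), the main cytosolic Hsc70, lies on 3R from 15242687 to 15246614 on the plus strand and has 6 TSSs. Its thresholded peak, from 15242529 to 15242898, had its summit at 15242714, 27 bp downstream of the outermost TSS in the first 5′ UTR exon. It ranked 3187 in the pooled list, among the weaker thresholded peaks, 3629 in replicate 2 and 7171 in replicate 3. Replicate 1 had no summit within 100 bp, and its nearest strong entry, at rank 3705, had its summit at 15242855, 35 bp upstream of the next TSS. Support was therefore 1 of 3 replicates, and 2 of 3 when a distance of 200 bp was allowed. A second entry 467 bp downstream of a TSS, in an intron, ranked 7965 in the pooled list.

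Hsc70-5 (FBgn0001220), the mitochondrial Hsp70, lies on chromosome arm 2R from 14252598 to 14256192 on the minus strand, next to CG8531, which is transcribed away from it. A first thresholded summit lay at 14256171, 21 bp downstream of the outer TSS of Hsc70-5. It ranked 1404 in the pooled list and 2298, 1439 and 989 in replicates 1, 2 and 3 (mean 1575 ± 665, SD, n = 3). Replicate 3, the list with the fewest entries at a low q-value, gave this summit its highest place. A second thresholded summit at 14256388 lay 196 bp upstream of Hsc70-5 and 105 bp from the TSS of CG8531. This one ranked 2908 in the pooled list and 3388, 11982 and 26447 in the replicates, so only replicate 1 placed it among its 4261 strongest entries.

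Hsp60A (FBgn0015245), the mitochondrial chaperonin, is on X from 11108482 to 11112308 on the plus strand and had no thresholded summit. Its single pooled entry lay 8 bp upstream of the outer TSS at rank 10811. Replicate 1 had an entry 7 bp upstream at rank 4311, just outside its 4261 strongest. Replicate 2 had one 107 bp upstream at rank 9558, and replicate 3 had only an entry in a coding exon at rank 22330. The entries of replicates 1 and 2 lay within 100 bp of the pooled summit, outside their 4261 strongest, and that of replicate 3 lay elsewhere. Hsf (FBgn0001222), the gene of the heat shock factor itself, lies from 18130303 to 18134634 on the minus strand of the same arm as Hsc70-5. It had no entry in the pooled list or in replicates 2 and 3, and 4 weak ones in replicate 1, the strongest at rank 14570 in an intron.

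The 4 small heat shock protein genes lie together on 3L. Their proteins bind unfolding proteins without using ATP. Across 16764 bp, from 9370931 to 9387694, which takes in these genes and 2 kb on each flank and touches 10 protein-coding genes, there were 3 thresholded summits. They stood 4683 and 6473 bp apart, beside Hsp22, Hsp26 and Hsp27. The pooled list held 6 entries in this span, and replicates 1, 2 and 3 held 8, 7 and 7.

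**Figure D3:**
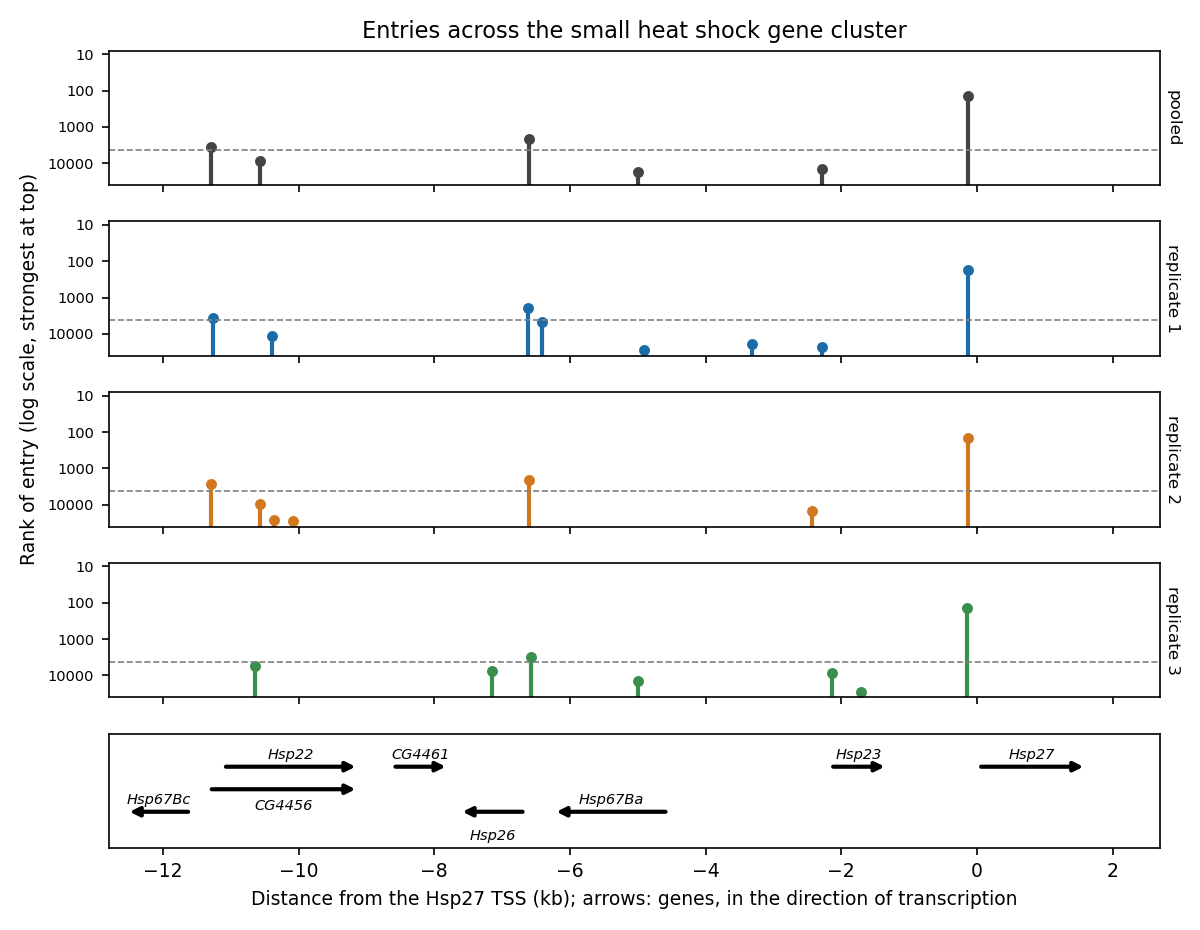
Entries across the small heat shock gene cluster by distance of their summit from the Hsp27 TSS (kb, horizontal axis) and rank (vertical log axis, strongest at top) in the pooled list and each replicate; the lowest panel draws the genes. The entry beside Hsp27 ranks 140 to 171 in the replicates, the one beside Hsp26 ranks 1962 to 3109, and the entries at the Hsp23 TSS lie below the dashed line at rank 4261.

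Hsp27 (FBgn0001226), on the plus strand from 9384063 to 9385694, had the strongest peak of the cluster, from 9383778 to 9384049. Its summit at 9383934 lay 129 bp upstream of the TSS. The peak ranked 144 in the pooled list and 171, 143 and 140 in replicates 1, 2 and 3, a mean of 151 ± 17.1 (SD, n = 3), with summits within 12 bp of the pooled one. This was the smallest SD of ranks among the member sites with an entry in all 3 replicates, smaller than that of the stronger Hsp83 peak.

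Hsp23 (FBgn0001224), on the plus strand from 9381882 to 9382765, is counted above only through the Hsp27 summit, which lies 2052 bp downstream of the Hsp23 TSS. At its own promoter, the pooled list had an entry 99 bp upstream at rank 14733. Within 500 bp of the Hsp23 TSS the strongest entries ranked 22918 in replicate 1, 14772 in replicate 2 and 8425 in replicate 3, with a mean of 15372 ± 7265 (SD, n = 3). These neighbouring genes of 1 family thus differ by their own promoters: the Hsp27 ranks (140 to 171) and those of Hsp23 (8425 to 22918) do not overlap.

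Hsp26 (FBgn0001225), on the minus strand from 9376418 to 9377427, had a thresholded peak from 9377276 to 9377645 with its summit at 9377461, 34 bp upstream of the outer TSS. It ranked 2161 in the pooled list and 1962, 2135 and 3109 in replicates 1, 2 and 3 (mean 2402 ± 618, SD, n = 3), and all 3 supported it, a count that became 1 of 3 when only 50% as many of the strongest entries were used. Hsp22 (FBgn0001223), on the plus strand from 9372931 to 9374964, had its thresholded summit at 9372778, in a peak from 9372593 to 9372962. That summit lay 153 bp upstream of the outer Hsp22 TSS, which the annotation shares with a transcript of CG4456, the gene also known as Hsp67Bb, and 56 bp downstream of another CG4456 TSS. The peak ranked 3608 in the pooled list, 3663 in replicate 1 and 2657 in replicate 2. Replicate 3 had no entry there, and its strongest one at Hsp22 ranked 5584, at 9373422, inside the gene. Relative to the inner Hsp22 TSS, at 9373997, the thresholded summit was at −1219, and the nearest pooled entry to that TSS lay 500 bp upstream at rank 8901.

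The sequences around the Hsp27 and Hsp26 summits and the 250 bases upstream of the Hsp23 TSS are printed as examples from the cluster, and differ in length and placement. They are chr3L:9383884-9383984 (plus strand), chr3L:9377411-9377511 (read on the minus strand) and chr3L:9381632-9381881 (plus strand), all dm6. In the Hsp27 window, capitals mark the 8-mers TAAATATT and ATATTTGC. In the Hsp26 window they mark GAGA repeats, read as CTCTC, and a pair of GAA blocks tail to tail, TTCTAGAA, searched as TTCNNGAA. In the Hsp23 promoter they mark a GAGA repeat, a tail to tail pair at −168, a head to head pair at −138 and the TATA box, TATAAA, at −27 from the TSS. A motif absent from the shorter stretches can lie outside them. TATAAA is also found at −28 from the Hsp27 TSS and at −28 from the inner Hsp26 TSS, and a head to head pair at −180 from the inner Hsp26 TSS. All of these lie beyond the printed bases.
Hsp27 summit: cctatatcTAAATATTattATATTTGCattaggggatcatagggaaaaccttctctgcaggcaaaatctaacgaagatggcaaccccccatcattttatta
Hsp26 summit: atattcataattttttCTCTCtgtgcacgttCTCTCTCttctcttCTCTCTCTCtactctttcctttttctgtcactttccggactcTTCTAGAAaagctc
Hsp23 promoter: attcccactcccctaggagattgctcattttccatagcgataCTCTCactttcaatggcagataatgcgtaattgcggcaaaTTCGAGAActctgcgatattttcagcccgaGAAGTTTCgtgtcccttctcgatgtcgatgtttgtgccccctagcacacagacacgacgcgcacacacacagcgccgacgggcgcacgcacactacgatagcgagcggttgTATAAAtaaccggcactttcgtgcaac

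The Hsp23 promoter holds heat shock element pairs with only weak entries. The 300 bases at the Hsp27 TSS (250 before and 50 after) hold no such pair beside the strongest peak of the cluster. Bases further upstream of that TSS were not searched, and a link between element pairs and signal was not tested. A match is a description of letters and not a binding site. Within 50 bp of the 9 member summits, a heat shock element pair in either orientation occurred at 2, the upper Hsp83 summit and the Hsp26 summit. In windows of the same length it occurred at 4.22% of all 4261 thresholded summits, and in 4.71% of windows placed 300 bp away from them. Promoters of all genes, at 300 bp a longer window, held a pair in 15.8%. Besides Hsp23, at least 1 promoter window of Hsp83, Hsc70-3, Hsc70-4, Hsp60A, Hsp22 and Hsp26 held a pair. The 15.8% is a share of single windows, so this list of genes, most with several windows, cannot be set beside it. By window, a pair was held by 1 of 2 for Hsp83, 2 of 4 for Hsc70-3 and 3 of 6 for Hsc70-4. It was held by 1 of 2 for Hsp60A, 1 of 2 for Hsp22 and 2 of 2 for Hsp26, and windows of 1 gene can overlap. Windows of Hsc70-5, Hsp27 and Hsf held none. The GAGA repeat GAGAG was found at 3 of 9 member summits, those of Hsp26 and Hsp22 among them, with 15.4% of all thresholded summits and 14.6% of the windows 300 bp away.

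Among 8-mers in the thresholded peaks outside the members, 10 recurred most over the flanking windows. They form an overlapping set rich in A and T, such as AATATTTG and GTAAACAA, and were chosen after the data had been seen. At least 1 of the 10 was found at 20.8% of thresholded summits, 10.4% of the windows 300 bp away and 32.5% of promoters. The excess of the first share over the second was built in, because the 8-mers were picked for it. Of the 9 member summits, 3 held at least 1, among them Hsp27 with ATATTTGC and AATATTTA, and the first Hsc70-5 summit with AATATTTA. Neither Hsp83 summit held any of them, although the upper one is the strongest of the members. TATCGATA, the core of the DNA replication-related element, GGTCACACT, the core bound by M1BP, and the E-box CACGTG were found at 0 of the 9 summits, against 0.634%, 0.493% and 1.22% of all thresholded summits. The TATA box TATAAA stood at 1 of 9, the first Hsc70-5 summit, against 14.2%. This count misses matches just outside the windows, centred 62.5, 60.5 and −51.5 bp from the upper Hsp83, the Hsp26 and the Hsc70-4 summits. In the longer promoter windows, every member but Hsf had TATAAA in at least 1 window. Of single promoter windows of all genes, 42.2% held it, a share by window and not by gene. All motifs were searched on both strands.

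The constitutive and the small heat shock protein genes were compared by the median over genes of the log10 rank of the strongest entry, with a missing entry set to rank 30000. The 5 constitutive genes had medians of 3.36, 3.41 and 3.86 in replicates 1, 2 and 3, and the 4 small heat shock protein genes had 2.76, 2.74 and 2.82. The difference, constitutive minus small, was 0.60, 0.67 and 1.04 (mean 0.77 ± 0.23, SD, n = 3), so the small heat shock protein genes had the stronger entries in each replicate. This order rests on the Hsp27 summit, which the 2 kb rule counts for both Hsp27 and Hsp23. With entries counted only within 500 bp of a TSS, a rule added after that sharing was seen, the differences were −0.07, 0.04 and 0.24 (mean 0.07 ± 0.15, SD, n = 3), smaller than their spread and of both signs. Both classes spanned a wide range: the constitutive genes ran from Hsp83 at pooled rank 24 to Hsp60A at 10811, and the small heat shock protein genes, by their own promoters, from Hsp27 at 144 to Hsp23 at 14733.

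A wider list of chaperones and partner proteins of the same pathways was examined for context. Of 53 symbols listed, 50 matched the annotation, 3 of them by synonym, and 3 were ambiguous and left out. Thresholded summits in the gene or within 2 kb were found at 14 of 50 genes (28%, where the share of all genes is 27.6%). Within 500 bp of a TSS they were found at 7 of 50 (14%, with 13.4% of all genes). By thresholded summits, the wider list thus stood close to genes at large. The median pooled rank of the 14 was 1782, with 1564 over all genes with a thresholded summit in the gene or within 2 kb. The replicates taken singly, by their strongest entries in the gene or within 2 kb, fell on both sides of genes at large. Replicate 1 reached 19 of 50 (38%, with 29.8% of all genes) and replicate 2 reached 19 of 50 (38%, with 28.6%). Replicate 3 reached 8 of 50 (16%, with 25%).

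The counts by family cover 3 to 10 genes each and are given without a test of their differences, beside the 27.6% of all genes with such a summit. Among the other small heat shock protein genes 6 of 8 were counted, but 4 of the 6 share 2 summits described above: Hsp67Ba and CG4461 that of Hsp26, and Hsp67Bc and CG4456 that of Hsp22. CG14207 had 2 thresholded summits of its own, the stronger 1044 bp upstream of its TSS, at pooled rank 977 and at 1228, 1525 and 686 in the replicates. The gene l(2)efl was counted by a summit 33 bp from the TSS of its neighbour St3 (pooled rank 3775). That summit ranked 3357, 4211 and 18469 in replicates 1, 2 and 3. None of the 8 genes of the CCT chaperonin, the cytosolic folding chamber for actin and tubulin, had a thresholded summit, and their best pooled rank was 4301. In the Hsp70 and Hsp110 family 0 of 10 had a thresholded summit, and 1 of 10 had a pooled entry, at rank 21440: Hsp110, named after its value was seen. The 6 heat-inducible Hsp70 genes, from Hsp70Aa to Hsp70Bc, are near-identical copies, and how reads that match several copies were placed is not given in the sources used here, so their lack of pooled and thresholded entries is uncertain. Hsp70Ab and Hsp70Bc each had a weak entry in replicate 2, at ranks 14077 and 16768.

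Among the partners of Hsp90 and Hsp70, 3 of 9 were counted. Of these stv, a co-chaperone of Hsp70 of the BAG family, had a summit 463 bp upstream of its TSS at pooled rank 883 (2294, 584 and 649 in the replicates). Cdc37 (rank 1212) and Trap1 (rank 2059) were counted through summits nearer to other genes, those of alpha-Spec and dlt for Cdc37 and Vha16-1 for Trap1, and neither had an entry in replicate 3. The J-domain gene mrj had an intron summit 274 bp upstream of an inner TSS at pooled rank 426, with 495, 288 and 632 in the replicates (mean 472 ± 173, SD, n = 3). DnaJ-1 (rank 3596) was counted through a summit 149 bp from the TSS of Usp47, and had no entry in replicate 3.

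CG11267, which encodes the Hsp10 partner of the mitochondrial chaperonin, had a summit 136 bp upstream of its TSS at pooled rank 651 and at 1209, 685 and 456 in the replicates (mean 783 ± 386, SD, n = 3). It thus ranked far above its partner Hsp60A in all 3 replicates. It was the 1 gene of 6 in the mitochondrial and Hsp60-like family with a thresholded summit. Of 3 chaperone genes of the endoplasmic reticulum, Cnx99A had an intron summit at pooled rank 1014 (1047, 1771 and 827 in the replicates), and Pdi was counted through a summit 116 bp from the TSS of CG12316 at rank 271, with no entry in replicate 3.

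**Figure D4:**
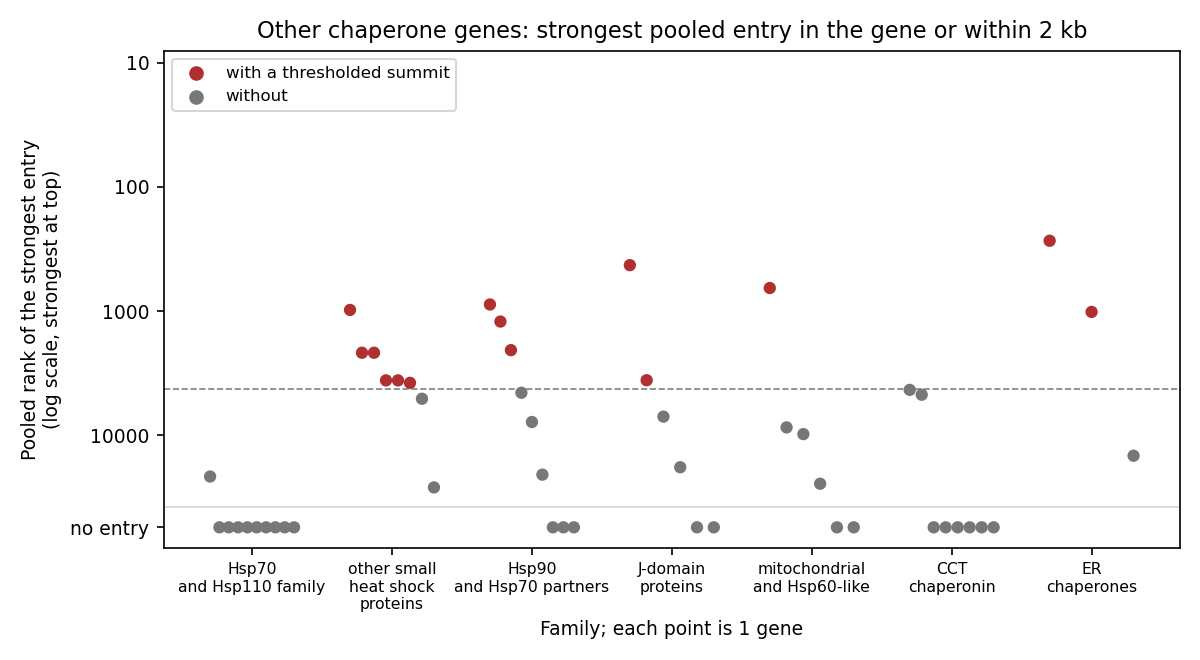
Pooled rank of the strongest entry in the gene or within 2 kb (vertical log axis, strongest at top) for the 50 genes of the wider list, grouped by family on the horizontal axis; red points had a thresholded summit, and points below the grey line had no pooled entry. The Hsp70 and Hsp110 family and the CCT chaperonin have 0 red points of 10 and 8 genes, and the other small heat shock proteins have 6 of 8, of which 4 share a summit with Hsp22 or Hsp26.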

How the data were processed

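The material was 3 ChIP-seq replicates of GFP-tagged CG12071, whose chromatin was sonicated to 200 to 800 bp, per the labels. The deposited score of each entry is the signal value of the authors' peak caller, whose scale is not stated, and was used only for ranks within 1 list. The deposited −log10 q-value was used only to count entries at 0.05 or less. Lists were made by the authors per replicate and on pooled reads against 1 control, and the thresholded list from both, per the sample file records. Each full list stops at 30000 entries, so a missing entry means a rank beyond that. Aligner and caller are not given in the sources used here. Genes came from Ensembl release 115 (BDGP assembly 6.54) and sequence from RefSeq's Release 6 genome, which share dm6 coordinates.

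Each summit was assigned to every gene it lay in or within 2 kb of. Motifs were sought within 50 bp of summits on both strands, and the sequence at 1 member summit is not reported here. The members, lists and rules were chosen with earlier results of these data known. Named genes are all members, every gene of the wider list with a thresholded summit, and the 5 most like Hsp83; the other genes of the wider list that are named were chosen after their values were seen. Python 3.11.15, NumPy 2.4.6, pandas 2.3.3 and matplotlib 3.10.9 were used, and the assignment was tested on simulated summits.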

Additional observations from a re-analysis of the deposited data

How the results depend on the processing

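Each count below is given beside the share of all protein-coding genes under the same rule, which is 27.6% for a thresholded summit in the gene or within 2 kb. The 4 constitutive genes became 2 among the stronger 50% of thresholded peaks (17.3% of all genes) and 2 with support required in every replicate (16.2%). Leaving out a replicate also required support in both others. Under that rule the constitutive genes numbered 2 to 3 and the small heat shock protein genes 3 to 4, with 18.3%, 17.3% and 21.2% of all genes without replicates 1, 2 and 3. Leaving out replicate 1 or replicate 2 gave the 2 constitutive genes. The 4 small heat shock protein genes became 2 when a summit counted only for the gene with the nearest TSS (16.7%) and 2 among the stronger 50%. The 14 genes of the wider list became 8 with a window of 500 bp around the gene (19.9%), 7 within 500 bp of a TSS (13.4%), 6 by the nearest TSS, 8 among the stronger 50%, 7 with support in every replicate, and 7 to 14 without a replicate (7 without replicate 1 and 7 without replicate 2).

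The class difference in log10 rank moved from 0.77 to 0.0689 with a window of 500 bp around the gene, to 0.0689 within 500 bp of a TSS (added after the data were seen) and to 0.37 as a mean over members; it was 0.91 without Hsp83 and 0.64 to 0.85 without a replicate. By their construction, the 500 bp rules drop distant summits, such as that of Hsp27 for Hsp23. The mean rank of Hsp83 was 17.5 without replicate 3, and that of Hsp60A was 6935 without replicate 3, against 44.7 and 12066 over all replicates. Within 500 bp of a TSS the mean rank of Hsp23 moved from 151 to 15372. With 50% as many of the strongest entries, supporting replicates fell from 3 to 1 for Hsp26 and from 3 to 2 for Hsc70-5. They fell to 0 for Hsp22, to 1 for Hsc70-3 and to 0 for Hsc70-4. For Hsp60A they were 2 among entries with a low q-value or among all entries, and for Hsc70-4 they were 2 at 200 bp or among all entries. No mean rank is given for Hsc70-3 and Hsf, which lack an entry in a replicate. No paired analysis was possible because the series has 1 group.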

Other observations

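Calr, the calreticulin gene of the endoplasmic reticulum, had entries at rank 512 in replicate 1 and 1368 in replicate 2 but none in replicate 3, while its best pooled entry ranked 14587. DnaJ-H had entries at ranks 1836 and 4082 in replicates 1 and 2, at 27166 in replicate 3, and at 18062 in the pooled list. Both genes were chosen after their values were seen.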
